A study of Mus musculus with 36 samples.

Results

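Gene expression in microdissected articular cartilage was compared between knees with destabilization of the medial meniscus (DMM) and non-operated control knees 12 weeks after surgery. The comparison used 6 of the 36 samples of the series and 6 of its 12 RNA libraries, 3 from DMM knees and 3 from control knees, chosen by the leg and the time point in their labels. The mice were C57BL/6J males, operated on the right knee at 12 weeks of age, and their left knees were the controls, so every control joint came from an animal with an injured joint and no sham-operated knee was part of the comparison. Cartilage was taken from the tibial plateaus and femoral condyles, and tissue from 3 knees was pooled for each library. The labels describe poly(A)-selected libraries, whereas the methods of the study describe full-length cDNA amplified from a few nanograms of RNA, and the counts do not show which was used. The libraries held 27706547 to 62737656 counts over 30048 RefSeq transcripts.

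DMM releases the medial meniscus from the tibia and loads the cartilage abnormally, and osteoarthritis (OA) then develops over weeks. Chondrocytes are the only cells of healthy articular cartilage and maintain its collagen II and aggrecan matrix, while the superficial cells next to the joint space make lubricin and carry genes of the embryonic joint interzone. In OA, chondrocytes are known to make matrix-degrading enzymes and inflammatory mediators, to divide in clusters and to take on features of hypertrophic or fibroblast-like cells.

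To see which tissues the libraries held, 14 lists of cell type markers were examined. Markers of chondrocytes ranged widely in level, from a mean of 1.04 CPM for Matn1 to 12738 CPM for Cytl1. Col2a1, the main collagen of cartilage, lay at 949, 1349 and 507 CPM (the count of a gene relative to the scaled library total) in the control libraries and at 2079, 2257 and 1323 CPM in the DMM libraries. Its ranges overlapped, since the lowest DMM library lay under the highest control library. Chad, which encodes the cartilage protein chondroadherin, lay at 5662 to 16437 CPM in control and 11102 to 18604 CPM in DMM libraries, again with overlap. Markers of other tissues were present too. The summed level of 20 skeletal muscle genes varied most, from 167 to 26245 CPM among the control and from 1118 to 21029 CPM among the DMM libraries, and it was high in control replicate 3 and DMM replicate 1. None of the 19 muscle genes tested separated the limbs. Marrow markers were present in all 6 libraries, and the 19 neutrophil genes together took 39350 to 66452 CPM in control and 32018 to 51051 CPM in DMM libraries. In bulk samples, fewer cells of a type and less RNA per cell cannot be told apart.

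**Figure D1:**
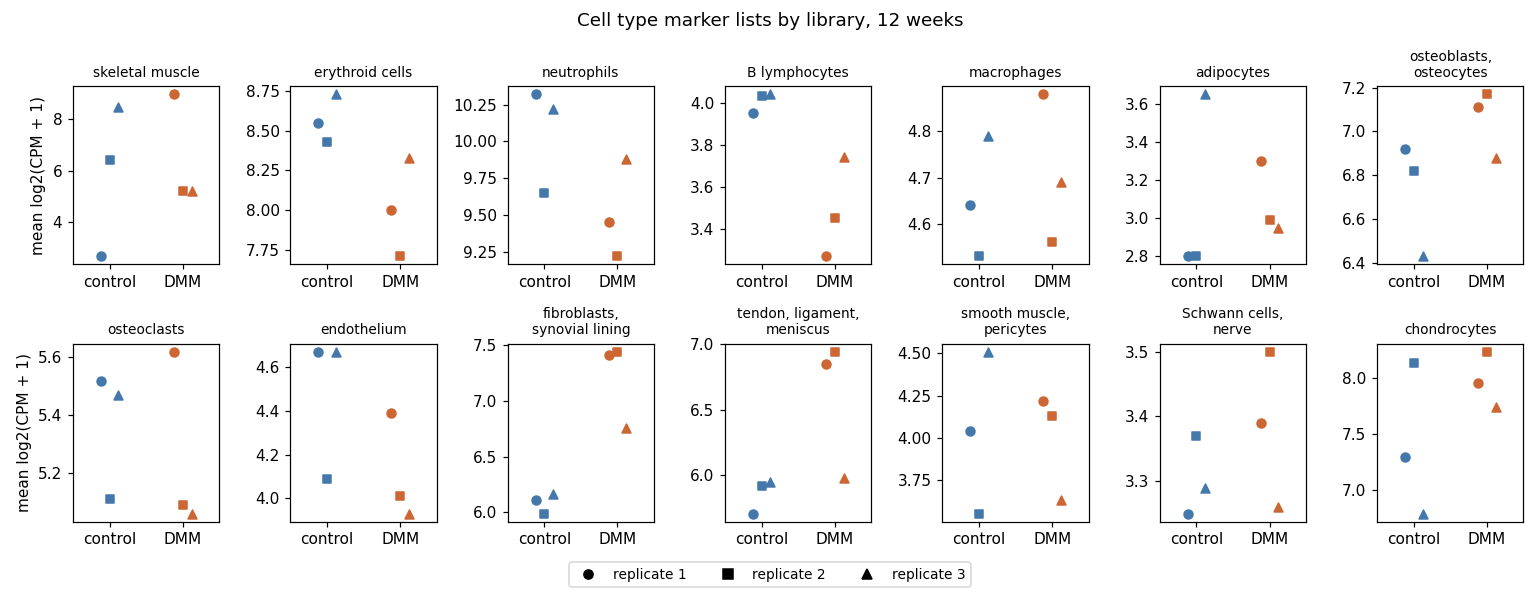
Mean log2(CPM + 1) over the genes of each cell type marker list in the 3 control (blue) and 3 DMM (orange) libraries at 12 weeks, with replicates 1 to 3 as circles, squares and triangles and a separate vertical range in each panel. The fibroblast and synovial lining level was higher in every DMM library (6.76 to 7.44) than in every control library (5.99 to 6.17), and the erythroid level was lower in every DMM library (7.71 to 8.33 against 8.43 to 8.73).

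The limbs were compared over 15409 genes with edgeR's quasi-likelihood test. Ptgs2 was the only gene that passed a Benjamini-Hochberg adjusted p-value of 0.05 in this test, higher in DMM (0.00649% of the genes tested), and no gene was lower past it (0%). Without adjustment, 1365 genes were higher and 1133 lower at a p-value under 0.05. DESeq2, the tool of the study's own methods, called 364 genes higher (2.42%) and 196 lower (1.3%) of 15027, and 534 of these 560 genes had limbs that did not overlap. All 3 DMM libraries lay above all 3 control libraries for 1646 genes (10.7% of those tested) and under them for 1243 genes (8.07%). These shares are the background for every count of non-overlapping genes given here, and the median log2 fold change of all genes was 0.01. The lists were chosen with earlier results of these data known, so a list share above this background is only a description. With the replicate number as a block, edgeR called 344 genes. The limbs came from the same mice, but no source used here says whether libraries with the same number hold the same mice. Calls by edgeR depended on single libraries, with 509 genes without control replicate 2, 73 without DMM replicate 3 and 0 without any 1 of the other libraries. Genes outside this one call are therefore described by their values or ranges over the libraries, and some by whether DESeq2 called them. Limbs that do not overlap are not a call. For example, DESeq2 did not call Myc, Rsad2, Id3, Sulf2, Ero1a or Mbp, which are described below.

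Ptgs2 (counted as NM_011198, gene annotated at chr1:150100031-150108234) encodes the inducible cyclooxygenase COX-2, which makes the precursor of the prostaglandins. It was at 7.41, 7.59 and 9.01 CPM in the control libraries and at 30.0, 29.0 and 26.4 CPM in the DMM libraries. All DMM libraries were close to each other and far above every control library. Ptgs2 rose 3.56-fold, a log2 fold change of 1.83 (SE 0.15, n = 3 per limb, adjusted p = 0.0307 in edgeR). The difference kept its size without any 1 library (1.76 to 1.89), but the adjusted p by the same test was 0.405 without control replicate 1, 0.14 without control replicate 3, 0.402 without DMM replicate 1 and 0.27 without DMM replicate 2. Pla1a, a phospholipase that releases lysophosphatidylserine, was at 3.77, 3.47 and 2.67 CPM in control and at 15.4, 13.7 and 12.3 CPM in DMM libraries. Its limbs did not overlap either, and its log2 fold change of 2.06 (SE 0.21) had the second smallest adjusted p in edgeR's test (0.0692). Htra4, a secreted serine protease, was at 58.0, 80.9 and 74.6 CPM in control and at 195, 208 and 165 CPM in DMM libraries. Pdpn, which encodes the membrane glycoprotein podoplanin of lymphatic and synovial lining cells and of young osteocytes, was at 3.64, 3.16 and 3.36 CPM in control and at 11.4, 11.2 and 9.00 CPM in DMM libraries. Both genes were separated in the same way, with log2 fold changes of 1.41 (SE 0.16) and 1.64 (SE 0.20), and edgeR's adjusted p was 0.108 for each.

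The start regions of the 4 higher genes with the smallest p that had an entry in the RefSeq promoter table (GRCm38.p6) are printed. These are annotated starts, and the counts do not show which start was used. Each window runs 5′ to 3′ from 250 bases before to 50 bases after the annotated start. For Il11 the table holds 2 windows, and the start of the one printed lies 50 bases from the 5′ end of the annotated gene. The Ptgs2 window is chr1:150099781-150100080 on the plus strand, that of Pdpn chr4:143299515-143299814 on the minus strand, that of Il11 chr7:4782808-4783107 on the minus strand and that of Kcnj15 chr16:95257308-95257607 on the plus strand. Capitals mark exact matches on either strand. The motifs searched were an AP-1 site, TGACTCA, and a cAMP response element, TGACGTCA. Further motifs were a TATA box, TATAAA, and a box named for its letters CCAAT. The last was an E-box, CACGTG.
Ptgs2: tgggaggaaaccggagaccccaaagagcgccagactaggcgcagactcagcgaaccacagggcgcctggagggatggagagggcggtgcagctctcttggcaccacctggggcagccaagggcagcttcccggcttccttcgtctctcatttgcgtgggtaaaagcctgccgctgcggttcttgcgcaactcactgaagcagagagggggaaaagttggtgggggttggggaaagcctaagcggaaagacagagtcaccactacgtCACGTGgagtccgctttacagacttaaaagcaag
Pdpn: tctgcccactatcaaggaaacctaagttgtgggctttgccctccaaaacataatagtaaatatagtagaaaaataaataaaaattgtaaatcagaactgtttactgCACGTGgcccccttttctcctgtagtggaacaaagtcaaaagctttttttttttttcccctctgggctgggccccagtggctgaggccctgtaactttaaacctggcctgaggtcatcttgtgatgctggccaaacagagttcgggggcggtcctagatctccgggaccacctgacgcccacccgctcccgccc
Il11: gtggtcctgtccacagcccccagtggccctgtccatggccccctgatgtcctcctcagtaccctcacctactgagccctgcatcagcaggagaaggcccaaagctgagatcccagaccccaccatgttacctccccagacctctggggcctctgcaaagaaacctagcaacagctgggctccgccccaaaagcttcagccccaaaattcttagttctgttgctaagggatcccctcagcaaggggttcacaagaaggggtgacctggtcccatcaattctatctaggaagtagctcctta
Kcnj15: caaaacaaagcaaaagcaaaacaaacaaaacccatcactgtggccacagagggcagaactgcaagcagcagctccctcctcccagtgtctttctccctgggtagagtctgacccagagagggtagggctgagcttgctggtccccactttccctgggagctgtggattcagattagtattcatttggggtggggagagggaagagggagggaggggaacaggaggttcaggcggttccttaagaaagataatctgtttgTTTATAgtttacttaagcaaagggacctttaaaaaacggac
An E-box was found in the windows of Ptgs2 and Pdpn, 17 bases past the annotated start and 144 bases before it. Of all 32851 windows in the table, 7.15% hold one. Kcnj15 held the letters TATAAA, searched as a TATA box, 10 bases past the annotated start on the opposite strand. Of all windows, 13.6% hold these letters on either strand. No window held the AP-1 site (5.2% of all windows), the cAMP response element (1.79%) or the letters CCAAT (37.4%), which says only that these letters are not in these windows.

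The interleukin-6 family signals through gp130 and includes ligands, soluble partners and receptors, and 5 of its 20 genes tested were higher in DMM without overlap and none lower. Il11, a ligand that acts on fibroblasts and bone cells, was at 0.918, 2.72 and 1.28 CPM in control and at 13.1, 15.7 and 14.3 CPM in DMM libraries. Every DMM library was several times above every control library, a log2 fold change of 3.11 (SE 0.39). Cntfr, a receptor subunit for ciliary neurotrophic factor, was at 1.34, 2.34 and 2.09 CPM in control and at 16.7, 11.1 and 6.04 CPM in DMM libraries (log2 fold change 2.54, SE 0.40). Socs3, the feedback inhibitor of the pathway, was at 36.8, 45.1 and 32.7 CPM in control and at 71.1, 84.8 and 50.0 CPM in DMM libraries (log2 fold change 0.84, SE 0.21). DESeq2 called all 3 of these genes, and edgeR's adjusted p was 0.108 for Il11, 0.123 for Cntfr and 0.227 for Socs3. The median of all 20 genes was -0.03, and 0.07 without control replicate 1.

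Genes of prostaglandin, phospholipase and kinin signalling had a median of 0.12 (0.06 without DMM replicate 2 and 0.26 without DMM replicate 3), and 8 of 24 were higher without overlap against 3 lower. Beside Ptgs2 and Pla1a, the low-abundance genes Bdkrb1 and Pla2g2e were higher. Bdkrb1, the bradykinin receptor induced by injury, was at 0.459, 0.223 and 0.425 CPM in control and at 1.77, 1.54 and 1.10 CPM in DMM libraries. Pla2g2e, a secreted phospholipase, was at 0.164, 0.200 and 0.541 CPM in control and at 2.46, 2.13 and 0.692 CPM in DMM libraries. The limbs of both genes were apart, though for Pla2g2e DMM replicate 3 came close to control replicate 3. Ptgis, the prostacyclin synthase, overlapped (131 to 234 CPM in control, 227 to 300 CPM in DMM). Lists of other inflammatory mediators did not share a direction. Of 30 genes of interleukin-1, TNF and NF-kB signalling 3 were higher and 7 lower without overlap (median -0.10, and -0.20 without DMM replicate 1), and of 23 chemokine genes 3 were higher and 2 lower (median -0.11, and 0.14 without control replicate 3). Il1rn, the natural antagonist of the interleukin-1 receptor, was at 55.9, 55.2 and 55.3 CPM in control and at 43.8, 37.5 and 31.0 CPM in DMM libraries (log2 fold change -0.57, SE 0.15). Tnfrsf12a, the receptor for TWEAK, went the other way, from 10.9 to 16.3 CPM in control to 22.2 to 38.7 CPM in DMM libraries.

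**Figure D2:**
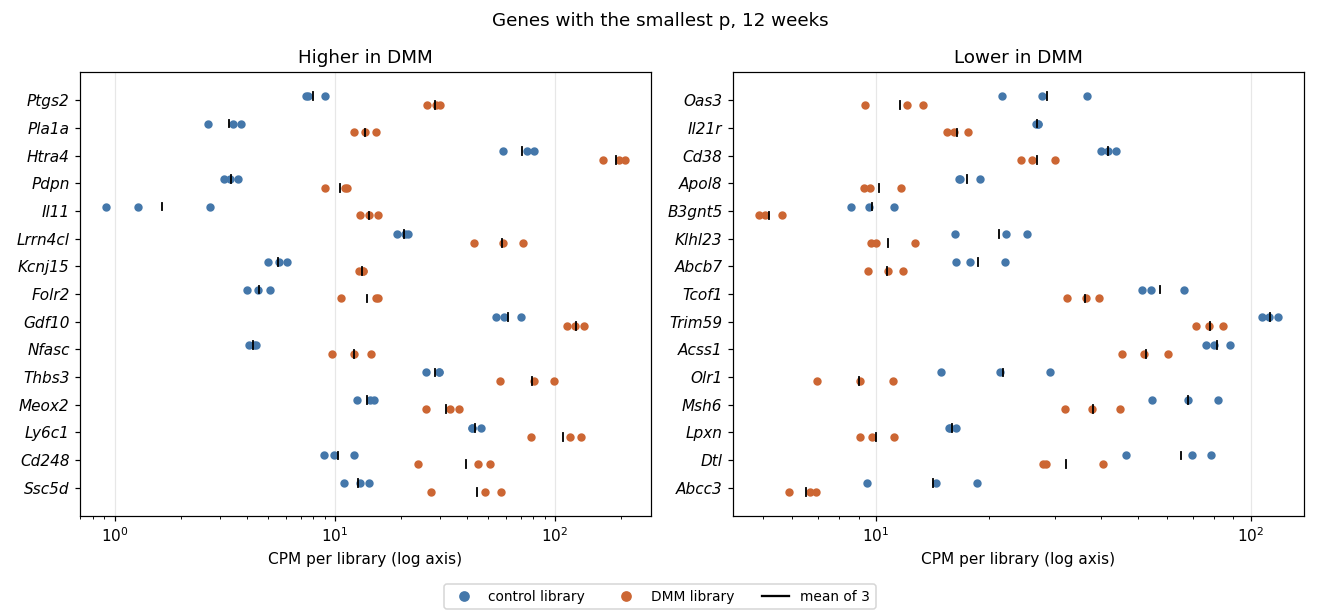
CPM in each control (blue) and DMM (orange) library, on a log axis, of Ptgs2 and 14 further higher genes (left) and of the 15 lower genes (right) with the smallest p among genes with a mean of at least 5 CPM and limbs that do not overlap, with black bars at the mean of 3. Ptgs2 sits at 7.41 to 9.01 CPM in control and 26.4 to 30.0 CPM in DMM libraries, and Oas3 at 21.7 to 36.5 CPM in control and 9.36 to 13.4 CPM in DMM libraries.

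Markers of fibroblasts and the synovial lining had the highest median of all 47 lists, 1.31, and 13 of 18 were higher without overlap against 1 lower. DESeq2 called 11 of them higher. Lum, which encodes the small proteoglycan lumican, was at 400, 431 and 436 CPM in control and at 1473, 1749 and 829 CPM in DMM libraries. Col3a1, the collagen of loose connective tissue, was at 372, 369 and 712 CPM in control and at 2996, 2888 and 1209 CPM in DMM libraries. Mfap5, a microfibril protein, was at 3.31, 2.52 and 7.08 CPM in control and at 24.8, 31.6 and 17.9 CPM in DMM libraries. In all 3 genes DMM replicate 3 was the lowest of the DMM libraries and still above every control library. The log2 fold changes were 1.68 (SE 0.27), 2.29 (SE 0.42) and 2.54 (SE 0.41), each with an adjusted p of 0.141 to 0.153 in edgeR's test. Ly6a, a surface protein of mesenchymal cells, was at 56.3 to 65.2 CPM in control and at 105 to 179 CPM in DMM libraries. Cd248, another such protein but not in this list, was at 8.93 to 12.2 CPM in control and at 23.8 to 50.6 CPM in DMM libraries. The list median stayed at 1.17 to 1.48 when any 1 library was left out. Of this list, Lum, Dcn, Col1a2, Col3a1, Mfap5, Has1 and Htra4 also count in the matrix lists below. Prg4 and Tspan15 also count in the articular surface list. Whether the fibroblast markers have a further part in the matrix and signalling differences below was not tested.

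The 5 lists of matrix genes and their enzymes had medians above 0, and none of their members was lower without overlap. Of 28 small proteoglycans and matrix adaptors 14 were higher without overlap (median 0.78), of 30 microfibril, elastic fibre and basement membrane genes 11 (median 0.64), of 32 fibrillar collagens and their processing enzymes 10 (median 0.62), of 34 genes of glycosaminoglycan synthesis and turnover 11 (median 0.34), and of 35 matrix proteases and inhibitors 14 (median 0.41). Without DMM replicate 1 the microfibril median was 0.38, without control replicate 3 the glycosaminoglycan median was 0.17, and without control replicate 2 the protease median was 0.64. Fmod, which encodes fibromodulin, a regulator of collagen fibril assembly, was at 222, 282 and 491 CPM in control and at 1603, 1679 and 839 CPM in DMM libraries. Thbs3, a member of the thrombospondin family, was at 29.8, 29.7 and 26.1 CPM in control and at 80.6, 99.3 and 56.2 CPM in DMM libraries. Matn4, a matrilin that links matrix networks, was at 2.95, 3.12 and 1.32 CPM in control and at 12.2, 9.31 and 5.82 CPM in DMM libraries. All 3 were separated, and their log2 fold changes were 2.05 (SE 0.37), 1.46 (SE 0.20) and 1.88 (SE 0.40). Comp, a thrombospondin typical of cartilage, was the only chondrocyte marker of 20 without overlap, at 1882, 2607 and 1390 CPM in control and at 3774, 4851 and 3184 CPM in DMM libraries.

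Among the collagens the difference was not shared by all members. Col1a1, the main collagen of bone and tendon, was at 11193, 7595 and 5016 CPM in control and at 8683, 6993 and 6778 CPM in DMM libraries, with ranges that overlapped and a log2 fold change of -0.08 (SE 0.31) that turned to 0.23 without control replicate 1. Col3a1 and the collagen VI genes differed from it. Col6a1 was at 339, 476 and 250 CPM in control and at 873, 1061 and 514 CPM in DMM libraries, and Col6a3 at 54.6, 80.8 and 55.7 CPM in control and 178, 192 and 104 CPM in DMM libraries. Collagen VI forms the pericellular mesh around chondrocytes and is also made by fibroblasts. Enzymes that process collagen were among the separated genes. Pcolce, the enhancer of procollagen cleavage, was at 121, 152 and 119 CPM in control and at 387, 373 and 217 CPM in DMM libraries. Loxl2, which cross-links collagen, was at 6.46, 11.0 and 6.77 CPM in control and at 31.2, 28.5 and 13.0 CPM in DMM libraries. P4ha3, a prolyl hydroxylase subunit, was at 2.18 to 6.03 CPM in control and at 8.18 to 18.7 CPM in DMM libraries.

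Of the proteases, Mmp3 (stromelysin) was at 7.74, 18.8 and 14.3 CPM in control and at 71.9, 75.8 and 31.6 CPM in DMM libraries (log2 fold change 2.13, SE 0.43), and Mmp2 (a gelatinase) was at 199, 153 and 157 CPM in control and at 462, 432 and 235 CPM in DMM libraries (log2 fold change 1.15, SE 0.26). Adamts16 was at 0.401 to 0.918 CPM in control and at 1.95 to 2.98 CPM in DMM libraries. The DMM libraries lay above the control libraries for all 3, and edgeR's adjusted p was 0.183 to 0.223. Serpine2, a protease inhibitor, overlapped, at 2287 to 4587 CPM in control and 3435 to 5207 CPM in DMM libraries. Uxs1, which makes UDP-xylose for the linker of many proteoglycan chains, was at 11.1, 13.5 and 9.98 CPM in control and at 23.6, 25.7 and 15.7 CPM in DMM libraries. Chst14, the dermatan sulfotransferase, was at 12.6 to 14.4 CPM in control and at 18.0 to 20.8 CPM in DMM libraries, and Naglu, a lysosomal enzyme of heparan sulfate breakdown, at 53.4 to 61.9 and 76.3 to 76.6 CPM.

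Transcription factors of skeletal patterning were the list most uniformly higher among the 33 pathway lists, with 37 of 38 genes higher, 24 of them without overlap and 16 called by DESeq2 (median 0.79). Meox2, a homeobox gene of somite and limb mesenchyme, was at 12.7, 15.1 and 14.5 CPM in control and at 33.5, 36.7 and 25.9 CPM in DMM libraries. Nfix was at 20.9, 28.6 and 18.8 CPM in control and at 45.9, 48.9 and 39.5 CPM in DMM libraries. Osr2, an odd-skipped factor needed for joint formation, was at 14.6, 25.1 and 13.8 CPM in control and at 37.8, 49.2 and 34.8 CPM in DMM libraries. Glis2, a zinc finger gene related to the GLI factors, was at 7.05 to 9.55 CPM in control and at 13.6 to 20.2 CPM in DMM libraries. These 4 genes had log2 fold changes of 0.98 to 1.18, and no DMM library came down to a control library. Sox9, the master regulator of chondrocytes, had overlapping limbs, at 180, 387 and 143 CPM in control and 332, 492 and 374 CPM in DMM libraries. The list median stayed at 0.68 to 1.06 without any 1 library, and the markers of chondrocytes and fibroblasts had medians of 0.50 and 1.31 in the same libraries. All 20 chondrocyte markers were higher, 1 of them without overlap, a share of 5% against 10.7% of all genes. Without both libraries with the most muscle RNA, chosen after seeing the data, 15 chondrocyte markers were higher and 5 lower. Sox5, Sox6 and Sox9 are in both that list and the patterning list. The part of chondrocytes and fibroblasts in the patterning list was not tested.

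Genes of the articular surface and joint interzone had a median of 0.65, with 10 of 21 higher without overlap. Prg4, which encodes lubricin, overlapped between limbs at 7544 to 22962 CPM in control and 13779 to 23361 CPM in DMM libraries. Gdf6, a growth factor of joint formation, was at 1.05, 1.38 and 2.17 CPM in control and at 8.43, 5.16 and 5.10 CPM in DMM libraries (log2 fold change 2.03, SE 0.36). Tspan15, a tetraspanin that guides the protease ADAM10, was at 22.5 to 31.5 CPM in control and at 36.8 to 77.7 CPM in DMM libraries, and Sulf2, which trims sulfate from heparan sulfate, at 51.6 to 69.6 and 73.6 to 100 CPM. Of 20 genes of hypertrophy and mineralization, 10 were higher without overlap and none lower (median 0.55). Ibsp, bone sialoprotein, was at 1929, 2313 and 1521 CPM in control and at 4100, 4862 and 3030 CPM in DMM libraries. Alpl, the alkaline phosphatase of mineralizing cells, was at 688, 735 and 451 CPM in control and at 1280, 1504 and 981 CPM in DMM libraries. Pth1r, the receptor for parathyroid hormone and PTHrP, was at 150, 187 and 149 CPM in control and at 347, 339 and 217 CPM in DMM libraries. All 3 were called by DESeq2, and their log2 fold changes were 1.06, 1.01 and 0.89. Sost and Mepe, which mark osteocytes, were higher as well, at 211 to 298 and 612 to 757 CPM in control and 342 to 488 and 1053 to 1102 CPM in DMM libraries. The 13 osteoblast and osteocyte markers had a median of 0.34, and 0.19 without control replicate 3. Ibsp, Runx2 and Sp7 are in both lists, and any further part of these markers in the mineralization genes was not tested.

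**Figure D3:**
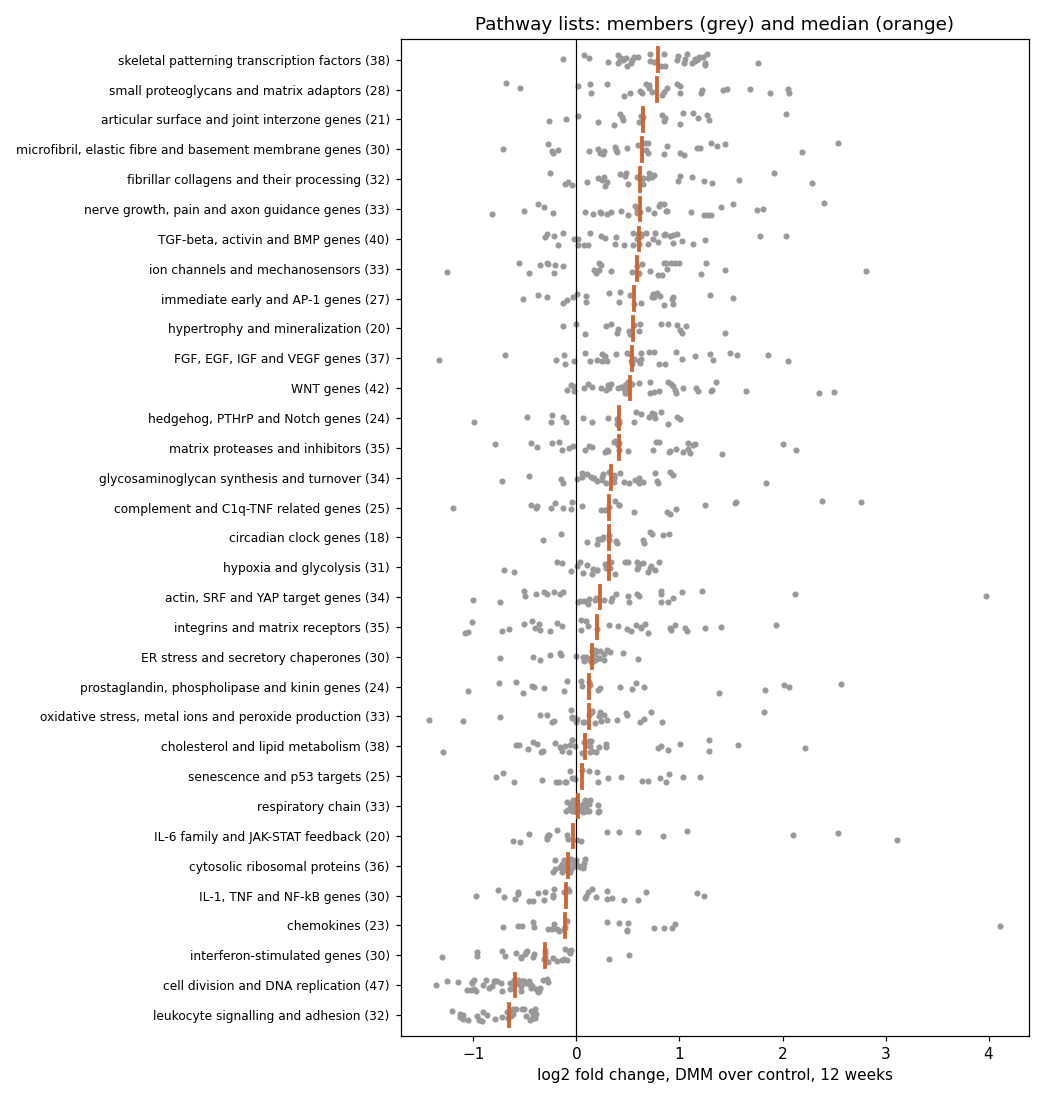
log2 fold change, DMM over control at 12 weeks, of each gene tested (grey points) in the 33 pathway lists, with the number of genes in parentheses and the list median as an orange bar. Skeletal patterning factors lie furthest to the right (median 0.79), leukocyte signalling furthest to the left (median -0.65), and the respiratory chain (0.02) and ribosomal proteins (-0.08) lie close to the median of all genes, 0.01.

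In the TGF-beta, activin and BMP list 17 of 40 genes were higher without overlap and none lower (median 0.61). Gdf10, a TGF-beta family ligand also called BMP3b, was at 58.8, 70.3 and 54.3 CPM in control and at 124, 136 and 114 CPM in DMM libraries (log2 fold change 1.02, SE 0.14). Nbl1, an antagonist of BMP ligands, was at 91.7, 91.4 and 113 CPM in control and at 426, 385 and 206 CPM in DMM libraries (log2 fold change 1.78, SE 0.27). Ski, which represses SMAD target genes, was at 18.5 to 26.3 CPM in control and at 34.2 to 44.3 CPM in DMM libraries. In each of them the libraries of the limbs were apart, with DMM replicate 3 the lowest of the DMM libraries. Id3, a BMP target, was higher by a smaller amount, at 198 to 268 CPM in control and 297 to 365 CPM in DMM libraries (log2 fold change 0.46).

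Of 42 WNT genes, 12 were higher without overlap and none lower (median 0.52, and 0.81 without control replicate 2). Sfrp4, a decoy for WNT ligands, was at 146, 126 and 160 CPM in control and at 258, 270 and 301 CPM in DMM libraries (log2 fold change 0.94, SE 0.15). Rspo2, which raises WNT responses, was at 2.59, 1.56 and 2.86 CPM in control and at 6.84, 8.94 and 6.17 CPM in DMM libraries (log2 fold change 1.65, SE 0.30). Wnt16, a ligand known to respond to joint injury, was at 5.15, 4.99 and 2.98 CPM in control and at 10.4, 13.2 and 9.22 CPM in DMM libraries (log2 fold change 1.32, SE 0.27). Dkk3 was at 36.2 to 40.8 CPM in control and at 55.9 to 129 CPM in DMM libraries. The FGF, EGF, IGF and VEGF list held 17 of 37 genes higher without overlap and 1 lower (median 0.54). Igfbp6, which binds IGF-II, was at 61.7, 51.5 and 71.3 CPM in control and at 191, 214 and 115 CPM in DMM libraries, and Vegfd, a lymphatic growth factor, at 0.423 to 0.774 CPM in control and 1.76 to 2.18 CPM in DMM libraries. Igfbp4 showed no separation, at 426 to 457 CPM in control and 343 to 440 CPM in DMM libraries.

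Genes of nerve growth, pain and axon guidance had a median of 0.62, with 14 of 33 higher without overlap and none lower. Nfasc, an adhesion protein of axons, was at 4.10, 4.39 and 4.29 CPM in control and at 12.2, 14.7 and 9.69 CPM in DMM libraries (log2 fold change 1.52, SE 0.21). Ntn1, the guidance cue netrin-1, was at 15.6, 16.3 and 13.3 CPM in control and at 46.3, 43.1 and 22.6 CPM in DMM libraries (log2 fold change 1.31, SE 0.26). Islr2, a neuronal surface protein, was near 0 in control (0.111 to 0.361 CPM) and at 1.01 to 1.54 CPM in DMM libraries. The 10 Schwann cell and nerve markers had a median of 0.24, and -0.02 without DMM replicate 1, with none higher and 2 lower without overlap, among them Mbp, myelin basic protein, at 51.0 to 73.6 CPM in control and 35.1 to 50.6 CPM in DMM libraries.

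Of 33 ion channels and mechanosensors, 8 were higher and 2 lower without overlap (median 0.59, and 0.21 without DMM replicate 1). Kcnj15, an inwardly rectifying potassium channel, was at 6.07, 5.59 and 4.99 CPM in control and at 13.4, 12.9 and 13.5 CPM in DMM libraries (log2 fold change 1.26, SE 0.17, adjusted p 0.108 in edgeR's test). Kcnma1, the large-conductance calcium-activated potassium channel, was at 62.9 to 96.7 CPM in control and at 107 to 170 CPM in DMM libraries, and Kcne4, a potassium channel subunit, at 3.96 to 4.53 and 7.42 to 7.98 CPM. Among immediate early genes the limbs overlapped for most members, with 2 of 27 higher and 2 lower without overlap despite a median of 0.56, which was 0.21 without DMM replicate 2 and 0.89 without control replicate 2. The 2 higher ones were Arc, a gene first known from neurons, at 16.5 to 25.4 CPM in control and from 45.1 CPM upwards in DMM libraries, and Fosl1, an AP-1 subunit, at 0.820 to 1.51 CPM in control and 3.02 to 4.47 CPM in DMM libraries. Myc was lower, at 87.2 to 94.4 CPM in control and 56.4 to 78.6 CPM in DMM libraries. In the circadian clock list 5 of 18 genes were higher without overlap (median 0.32, and 0.50 without control replicate 3), among them the repressors Bhlhe40 and Bhlhe41, at 147 to 187 and 8.98 to 12.5 CPM in control and at 242 to 322 and 18.4 to 19.0 CPM in DMM libraries.

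Of 25 complement and C1q/TNF-related genes, 9 were higher and 2 lower without overlap (median 0.32), and the 4 genes with the smallest p were all C1q/TNF-related secreted proteins. C1qtnf5 was at 7.87, 8.95 and 7.66 CPM in control and at 27.6, 28.2 and 16.1 CPM in DMM libraries. C1qtnf7 was at 3.57, 3.03 and 3.40 CPM in control and at 8.46, 8.14 and 7.20 CPM in DMM libraries. C1qtnf1 was at 33.1 to 41.3 CPM in control and at 55.7 to 80.3 CPM in DMM libraries, and C1qtnf2 at 3.21 to 4.59 and 7.61 to 14.3 CPM. All 4 were called by DESeq2 and had log2 fold changes of 0.91 to 1.55. Of 15 macrophage markers, 5 were higher and 10 lower, and without overlap 3 were higher and 3 lower. The 3 higher ones without overlap were Folr2, Lyve1 and Vsig4, which DESeq2 called. Mrc1, also among the 4 with the smallest p, was lower with overlap (log2 fold change -0.68, SE 0.21). Folr2 was at 4.00, 5.10 and 4.49 CPM in control and at 15.8, 15.4 and 10.7 CPM in DMM libraries, and Lyve1, which lymphatic vessels also carry, was at 4.00, 2.87 and 4.83 CPM in control and at 19.7, 15.7 and 8.15 CPM in DMM libraries. Csf1r, the receptor that all macrophages need, overlapped at 199 to 317 CPM in control and 158 to 251 CPM in DMM libraries, and the 15 markers had a median of -0.25, and -0.14 without DMM replicate 2. The 3 markers that were lower without overlap, chosen after their values were seen, were Cd163 (log2 fold change -0.92), C1qb (-0.25) and Ms4a7 (-0.28), none called by DESeq2.

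The lists with the lowest medians held genes of leukocytes, dividing cells and marrow. All 47 genes of cell division and DNA replication were lower, 24 without overlap and 21 called by DESeq2 (median -0.60). Top2a, a topoisomerase of dividing cells, was at 260, 122 and 218 CPM in control and at 80.1, 78.0 and 113 CPM in DMM libraries (log2 fold change -1.15, SE 0.28). Anln, which builds the cleavage furrow, was at 92.3, 47.0 and 64.9 CPM in control and at 35.0, 33.4 and 34.8 CPM in DMM libraries (log2 fold change -0.99, SE 0.23). Dtl, which directs the destruction of replication licensing factors, was at 78.6, 46.6 and 69.9 CPM in control and at 28.5, 28.0 and 40.3 CPM in DMM libraries (log2 fold change -1.01, SE 0.23). In all 3 control replicate 2 was the lowest control library and still above the DMM libraries. The adjusted p in edgeR's test was 0.22 to 0.227. Rrm2, a subunit of the enzyme that makes deoxynucleotides, overlapped at 509 to 599 CPM in control and 325 to 559 CPM in DMM libraries.

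Marrow lists had medians under 0 in the same libraries. All 18 erythroid genes were lower (10 without overlap, 5 called by DESeq2, median -0.50), as were 15 of 16 B lymphocyte genes (7 without overlap, median -0.57). All 19 neutrophil genes were lower too (median -0.55), but only 1 without overlap. That share, 5.26%, was under the 8.07% of all genes, and the summed neutrophil level overlapped between limbs. The part of marrow cells in the cell division list was not tested. Epb42, a red cell membrane protein, was at 187, 141 and 200 CPM in control and at 98.5, 79.0 and 120 CPM in DMM libraries, and Tfrc, the transferrin receptor, was at 269, 140 and 217 CPM in control and at 118, 91.2 and 120 CPM in DMM libraries. Hbb-bs, a haemoglobin chain, overlapped at 5076 to 7285 CPM in control and 3974 to 6494 CPM in DMM libraries. Bank1, a B cell adaptor, was at 17.5 to 26.7 CPM in control and at 9.36 to 13.7 CPM in DMM libraries. Leukocyte signalling and adhesion genes gave the lowest median of all lists, -0.65, with all 32 lower, 15 without overlap and 17 called by DESeq2. Dock2, which drives leukocyte migration, was at 58.9, 33.4 and 62.3 CPM in control and at 23.9, 17.7 and 29.0 CPM in DMM libraries. Cd38, an ectoenzyme of immune cells, was at 43.8, 41.6 and 39.9 CPM in control and at 26.1, 24.4 and 30.1 CPM in DMM libraries (log2 fold change -0.64, SE 0.13). The medians of these lists stayed under 0 without any 1 library.

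Oas3 and Il21r had the smallest p among the lower genes with a mean of at least 5 CPM, limbs that did not overlap, a gene name and no mention in the paper. Oas3, an interferon-induced sensor of double-stranded RNA, was at 27.7, 21.7 and 36.5 CPM in control and at 13.4, 9.36 and 12.1 CPM in DMM libraries (log2 fold change -1.30, SE 0.23). Il21r, a cytokine receptor of lymphocytes, was at 27.1, 26.8 and 27.1 CPM in control and at 17.6, 16.2 and 15.5 CPM in DMM libraries (log2 fold change -0.72, SE 0.13). Their limbs were apart, and the adjusted p was 0.153 for both in edgeR's test and 4.51e-05 and 0.000141 in DESeq2. Of 30 interferon-stimulated genes, 28 were lower, 14 without overlap and 5 called by DESeq2, against 1 higher without overlap (median -0.30). Rsad2, which encodes the antiviral enzyme viperin, was at 119, 119 and 183 CPM in control and at 95.4, 80.4 and 104 CPM in DMM libraries. Other lower genes with limbs apart were Olr1, a receptor for oxidized lipoprotein, at 29.1, 14.9 and 21.5 CPM in control and 6.96, 9.10 and 11.1 CPM in DMM libraries, Msh6, a mismatch repair protein, at 54.6 to 82.0 and 31.9 to 44.7 CPM, and Acss1, the mitochondrial acetyl-CoA synthetase, at 76.0 to 88.1 and 45.4 to 60.2 CPM. Of 16 endothelial markers, 3 were lower and none higher without overlap, with a median of -0.29 (-0.54 without DMM replicate 1 and -0.11 without DMM replicate 3). Of these, Flt4 and Sele were at 10.8 to 26.9 and 5.14 to 10.3 CPM in control and at 4.63 to 8.65 and 3.24 to 3.67 CPM in DMM libraries.

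**Figure D4:**
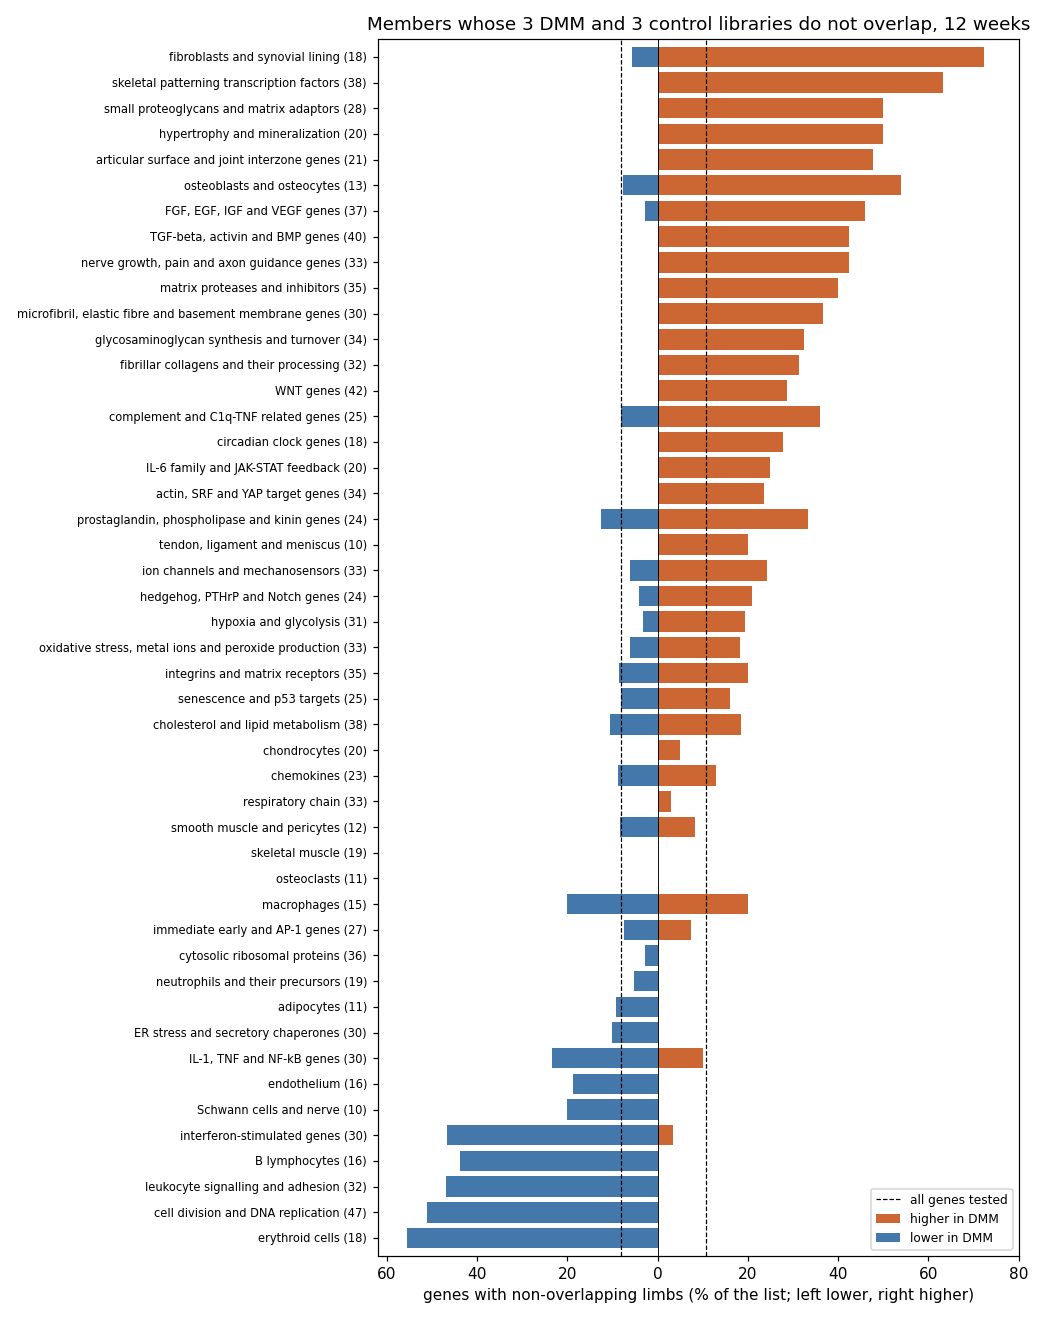
Share of the genes tested in each of the 47 lists whose 3 DMM libraries lie above (orange, right) or under (blue, left) all 3 control libraries at 12 weeks, with the list size in parentheses and dashed lines at the shares over all genes tested, 10.7% higher and 8.07% lower. Fibroblast markers (72.2%) and skeletal patterning factors (63.2%) have the longest bars to the right, erythroid markers (55.6%) and cell division genes (51.1%) the longest to the left. The lists were chosen with earlier results of these data known.

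Several lists had medians close to that of all genes, and single libraries set the sign of some of them. Of 33 respiratory chain genes 1 was higher and none lower without overlap (median 0.02, and -0.14 without DMM replicate 1), and of 36 cytosolic ribosomal protein genes none was higher and 1 lower (median -0.08, and -0.17 without DMM replicate 3). Genes of endoplasmic reticulum stress and secretory chaperones had 3 of 30 lower without overlap (median 0.15, and -0.05 without control replicate 3). Senescence and p53 target genes had a median of 0.05, and -0.09 without DMM replicate 1, with 4 of 25 higher and 2 lower without overlap, the former including Ddit4l, a stress-induced inhibitor of mTOR, at 273 to 407 CPM in control and 504 to 655 CPM in DMM libraries, and the cell cycle inhibitor Cdkn1c at 22.4 to 38.7 and 43.4 to 65.5 CPM. Cholesterol and lipid genes had a median of 0.08, and 0.00 without DMM replicate 1, with 7 of 38 higher and 4 lower. Acsbg1, an acyl-CoA synthetase, stood out in that list at 0.852, 0.891 and 1.74 CPM in control and 4.95, 5.69 and 5.51 CPM in DMM libraries (log2 fold change 2.22, SE 0.34). Of 33 genes of oxidative stress and metal ions, 6 were higher and 2 lower without overlap (median 0.12, and 0.04 without control replicate 1). Heph, a copper-dependent iron oxidase, was lower at 6.95 to 9.90 CPM in control and 1.51 to 4.52 CPM in DMM libraries.

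To ask whether the 12-week difference was already present at 4 weeks, it was set beside the 6 RNA libraries of that time point, which share no sample with it. The interaction of limb and week was tested over 15916 genes with edgeR, and no gene passed (0%). Without adjustment 1895 genes had a p-value under 0.05, and DESeq2 called 13 genes. Of the 362 genes that DESeq2 called higher at 12 weeks and that had a 4-week value, 251 were also higher at 4 weeks, 127 of them without overlap (median 0.37), and of the 196 called lower, 143 were lower at 4 weeks, 7 without overlap (median -0.23). Over all 15175 genes tested at 12 weeks with a 4-week value, 47.2% were higher and 52.8% lower in DMM at 4 weeks, and 11.2% were higher and 9.89% lower without overlap. Ptgs2 was at 12.1, 9.74 and 6.67 CPM in the 4-week control and 22.2, 22.7 and 17.6 CPM in the 4-week DMM libraries, also without overlap, a log2 fold change of 1.13. Fibroblast markers had medians of 0.97 at 4 and 1.31 at 12 weeks, and matrix adaptors 0.42 and 0.78. Other lists had medians near 0 or of the other sign at 4 weeks. Skeletal patterning factors had -0.05 at 4 and 0.79 at 12 weeks, TGF-beta and BMP genes -0.04 and 0.61, WNT genes -0.12 and 0.52, immediate early genes -0.47 and 0.56, hypoxia and glycolysis genes -0.51 and 0.32, and interferon-stimulated genes 0.22 and -0.30. In all, 13 of the 33 pathway lists had a median above 0 at 12 weeks and under 0 at 4 weeks, and 4 the reverse. Skeletal muscle markers differed between the weeks too, with all 20 lower in DMM without overlap at 4 weeks (median -2.55) and none separated at 12 weeks, where the median of -0.18 became -2.51 without DMM replicate 1 and 2.13 without control replicate 3. Chondrocyte markers had medians of -0.80 and 0.50, and at 12 weeks 0.17 without control replicate 3 and 1.10 without control replicate 2. The part of these tissues in the difference between weeks was not tested.

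**Figure D5:**
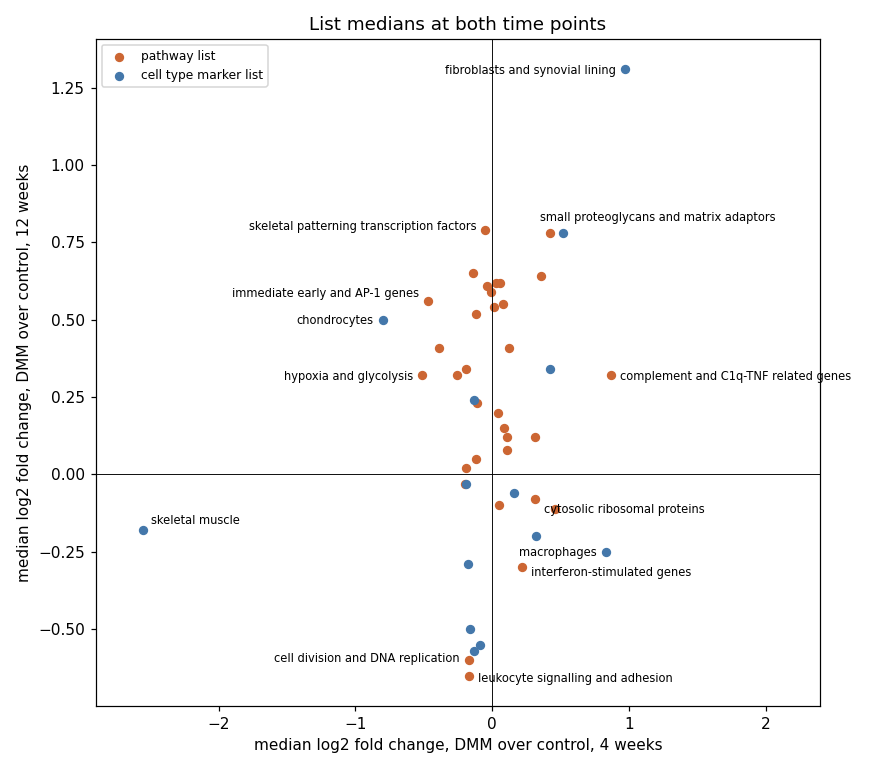
Median log2 fold change, DMM over control, of each list at 4 weeks (horizontal axis) and 12 weeks (vertical axis), with pathway lists in orange and cell type marker lists in blue. Fibroblast markers are at the top right (0.97 and 1.31), skeletal muscle at the far left (-2.55 and -0.18), and skeletal patterning factors near 0 at 4 weeks and at 0.79 at 12 weeks.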

How the data were processed

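Members and gene lists were chosen with earlier results of these data known. The authors removed adapters (FLEXBAR), mapped reads to mm10 (STAR) and assigned them to RefSeq transcripts (featureCounts). What they deposited for each RNA library is a raw count per transcript, checked here to hold only whole numbers. Of 30048 transcripts, 29476 were named from the RefSeq annotation and 178 from GENCODE, and the row with the highest mean count was kept for each of 23575 genes, so genes that share reads with a copy are uncertain. CPM was relative to the total count of the genes tested at that time point, scaled by TMM. The 12-week limbs were compared with edgeR 4.0.16 in R 4.3.3 (filterByExpr, TMM, robust quasi-likelihood test, Benjamini-Hochberg adjusted p under 0.05), 3 libraries against 3, and the limb by week interaction over all 12 RNA libraries. A comparison of 3 against 3 has no exact permutation p under 0.10, so none is given.

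Genes named in the text were those called, the 15 higher and 15 lower with the smallest p among genes with a mean of at least 5 CPM and limbs that did not overlap (leaving out genes named in the paper and unnamed transcripts), in each list the gene with the highest mean CPM and the 4 with the smallest p, and the 5 with the smallest interaction p. Of these, 2 genes are not reported here. A list score is the mean of log2(CPM + 1) over its genes. The 47 lists were described by counts and medians without a test. Libraries of the same depth were simulated for the 12-week comparison with 15409 genes, each varying independently of the others. The test recovered 40 of 100 genes changed by 1 and 85 of 100 changed by 2 on the log2 scale, with 13 false calls. Variation shared between genes, such as that of muscle RNA, was not simulated, so these shares are not the power in the real libraries. The alternatives were DESeq2 1.42.0, median-of-ratios factors, dropping the low count filter or raising it to 10 counts per library, keeping each RefSeq row, blocking on the replicate number, estimating the spread from all 12 RNA libraries, leaving out each library, and, chosen after seeing the data, the 2 libraries with the most muscle RNA left out. Each replicate was a pool of knees, and replicates differed beyond counting noise (chi-square per degree of freedom 70.1 to 238), and p-values measure the spread between these pools. The methylation libraries of the series were not analysed here.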

Additional observations from a re-analysis of the deposited data

Results flagged for a closer look

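In 4 of the genes named here every DMM library lay on one side of every control library at 12 weeks and on the other side at 4 weeks, as it did for 81 (0.534%) of all 15175 genes with values at both weeks. Of the 4, Ppp1r3c, Paip1 and Ranbp6 had been named for their small interaction p, so the pattern in them is a description. Cyp46a1, which turns cholesterol into 24-hydroxycholesterol, was at 1.21, 1.47 and 0.967 CPM in control and 3.03, 3.14 and 2.83 CPM in DMM libraries at 12 weeks, and at 2.25, 2.03 and 1.12 CPM in control and 1.0, 0.221 and 0.798 CPM in DMM libraries at 4 weeks. The difference between the 2 contrasts was 2.72 on the log2 scale (SE 0.64). Ppp1r3c, a glycogen-targeting phosphatase subunit, was at 39.4 to 52.5 CPM in control and 66.6 to 76.6 CPM in DMM libraries at 12 weeks, and its log2 fold change was 0.61 at 12 weeks and -0.69 at 4 weeks (difference 1.28, SE 0.26). Paip1, a partner of the poly(A)-binding protein, was at 5.92 to 6.86 CPM in control and 7.27 to 9.20 CPM in DMM libraries at 12 weeks, and at 10.4 to 15.6 and 5.70 to 7.56 CPM at 4 weeks (difference 1.32, SE 0.30). Ranbp6, an importin, went the other way, at 22.9 to 30.2 CPM in control and 15.3 to 18.0 CPM in DMM libraries at 12 weeks, with a log2 fold change of -0.69 at 12 weeks and 0.44 at 4 weeks (difference -1.14, SE 0.23). None of these differences passed in edgeR's interaction test, where the adjusted p was 0.414 for each and the unadjusted p 0.00109, 0.000373, 0.000882 and 0.000293 in the order given.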

How the results depend on the processing

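The count of genes called in the 12-week comparison was 1, and it was 560 with DESeq2, 2 without a filter on low counts and 0 without both libraries with the most muscle RNA. It ranged from 0 to 509 when 1 library was left out, with 509 without control replicate 2, 73 without DMM replicate 3 and 0 without any other. The interaction gave 0 calls, 13 with DESeq2, and 0 to 2 with 1 library left out (2 without the 4-week control replicate 1). Genes with limbs that do not overlap numbered 2889, 3541 to 6907 with 1 library left out (6907 without control replicate 2), and 5649 without both libraries with the most muscle RNA, settings in which fewer libraries have to be apart. The cause of the other differences was not tested. Whether the replicate numbers pair the limbs was not established, since deviations of same-numbered libraries correlated at -0.576, 0.294 and -0.27 over 15409 genes, and with the replicate number as a block 344 genes were called (231 higher, 113 lower). Of 1649 values of 127 named genes under the alternatives, 1 changed sign, Col1a1 from -0.08 to 0.23 without control replicate 1 (range -0.36 to 0.23 over the libraries left out). Of 470 list medians under the alternatives, 433 moved by less than the spread between replicates, and median-of-ratios factors changed the sign of none of the 47 medians, while leaving out control replicate 3 or both libraries with the most muscle RNA, chosen after seeing the data, changed the sign of 5 in each case.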

Other observations

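Lists not described above held further genes that separated the limbs at 12 weeks. Among 35 integrins and matrix receptors (median 0.20, and 0.02 without DMM replicate 1, 7 higher and 3 lower without overlap), Antxr1, a receptor for collagen VI, was at 11.8, 9.75 and 13.2 CPM in control and at 35.6, 35.0 and 21.2 CPM in DMM libraries (log2 fold change 1.40, SE 0.23), and the heparan sulfate proteoglycan Sdc2 was at 83.9 to 113 CPM in control and at 152 to 259 CPM in DMM libraries. Among 34 actin, SRF and YAP target genes (median 0.23, and 0.11 without DMM replicate 1, 8 higher and none lower without overlap), Tmod2, which caps actin filaments, was at 3.02, 1.49 and 2.32 CPM in control and at 12.8, 10.7 and 6.07 CPM in DMM libraries (log2 fold change 2.12, SE 0.37). The matricellular genes Ccn5 and Ccn3 were at 32.8 to 49.5 and 50.8 to 54.9 CPM in control and at 66.3 to 93.8 and 77.4 to 122 CPM in DMM libraries. DESeq2 called these 5 genes, and edgeR's adjusted p was 0.141 for Antxr1, 0.144 for Tmod2, 0.192 for Sdc2, 0.212 for Ccn5 and 0.219 for Ccn3. Of the actin, SRF and YAP list, DESeq2 called 7 genes higher and 1 lower. Ccn2 had the highest level of that list and was not among the named genes put under the alternatives. Its limbs overlapped, at 1803 to 6720 CPM in control and 3588 to 6903 CPM in DMM libraries (log2 fold change 0.34, SE 0.47).

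Among 24 hedgehog, PTHrP and Notch genes (median 0.41, and 0.62 without control replicate 2, 5 higher and 1 lower without overlap), the lower gene was Notch1, a receptor also used by blood and vessel cells, at 50.1, 24.9 and 46.5 CPM in control and 24.8, 14.2 and 21.8 CPM in DMM libraries. Among 31 hypoxia and glycolysis genes (median 0.32, 6 higher and 1 lower without overlap), Adm, which encodes adrenomedullin, was at 13.7, 19.1 and 10.8 CPM in control and at 23.9, 27.6 and 24.8 CPM in DMM libraries, and Ero1a, an oxidase of protein folding, was lower at 78.6 to 127 CPM in control and 63.5 to 67.2 CPM in DMM libraries. Tnmd, a tendon and ligament marker, was at 0.361, 0.668 and 2.59 CPM in control and at 9.81, 4.47 and 1.16 CPM in DMM libraries, with limbs that overlapped in DMM replicate 3. Cntfr had a log2 fold change of -2.76 at 4 weeks and 2.54 at 12 weeks. At 4 weeks its control libraries lay at 27.8, 8.78 and 2.11 CPM and its DMM libraries at 2.55, 1.86 and 1.30 CPM, and the interaction had an adjusted p of 0.414 in edgeR.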
